A study of Mus musculus with 14 samples.

Results

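The Slc25 genes encode the mitochondrial carrier family, the largest group of transport proteins of the inner mitochondrial membrane. Members were taken as the protein-coding rows of the deposited count table whose gene name starts with Slc25a. The rule found 47 of 55487 rows, or 47 of 21936 protein-coding rows. Expression was compared between macrophages and epithelial cells of the mouse colon, and between genotypes within each population.

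Each carrier is built from repeats of a pair of membrane helices and moves small molecules between the cytosol and the mitochondrial matrix, usually by exchange or together with a proton. The substrates are nucleotides, phosphate, di- and tricarboxylates, amino acids, acylcarnitines, cofactors, metals and glutathione. In absorptive epithelium these carriers link the respiratory chain, the citric acid cycle and lipid synthesis to the cytosol. In macrophages the citrate carrier and its neighbours are known for supplying cytosolic acetyl groups and for shaping succinate and malate pools during activation.

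The data are RNA-seq of 14 libraries, each from cells isolated by flow cytometry. Every animal carried floxed Tsc2 (Tsc2fl/fl). The wt groups carried no Cre recombinase (Lyz2+/+), and the cre groups carried 1 Cre allele in the Lyz2 locus (Lyz2cre/+), which drives recombination in myeloid cells. Tsc2 encodes tuberin, which restrains the growth kinase complex mTORC1. Lamina propria macrophages (LP; CD45+, CD11b+, CD64+, Ly6G-) are represented by 3 libraries per genotype, and epithelial cells (EC; EpCAM+, CD44+, CD45-) by 4 per genotype. All 3 cre macrophage libraries were from males, against 1 male and 2 females in wt, and the epithelial groups held 3 males and 1 female (cre) and 2 males and 2 females (wt). Ages are not stated. Since no group carried Cre alone, effects of the Cre allele and of the Tsc2 deletion cannot be told apart. The series text gives 3 wt mice whereas the titles carry 4 wt numbers, so a pair of wt epithelial libraries may share an animal. In that case p-values, which measure the spread between libraries, may be too small. Macrophage and epithelial libraries may also share animals, which the main tests across both populations did not model. Libraries are named below by group and the number in their title.

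Libraries held 7269103 to 9364551 counts. The library labels were checked on cell markers, as CPM (counts scaled to library size) summed over lists. The 12 epithelial markers summed to 14110–21420 CPM in epithelial libraries and 75.7–516 in macrophage libraries, and the 12 macrophage markers to 8698–17460 CPM in macrophages and 21.5–79.0 in epithelial cells. Macrophage libraries also held fibroblast and smooth muscle transcripts (1194–3146 CPM in cre, 3625–6172 in wt, against 2.28–8.02 in epithelial libraries) and B and plasma cell transcripts (567–2673 CPM). The targeted gene did not separate the genotypes in macrophages: Tsc2 stood at 26.9, 32.7 and 35.7 CPM in cre and 25.6, 38.1 and 42.9 CPM in wt. In epithelial cells it stood at 47.6–55.7 CPM in cre and 44.1–50.1 CPM in wt. Gene-level reads also come from exons outside the floxed stretch, whose extent is not stated. In bulk RNA from sorted cells, fewer cells of a type and less RNA per cell cannot be told apart.

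Levels of different members were compared as FPKM, which is scaled to transcript length and library size. The summed FPKM of the family was 889 ± 25.7 (SD, n = 6) in macrophages and 1882 ± 219 (SD, n = 8) in epithelial cells. It ran from 853 to 929 over the macrophage libraries and from 1591 to 2222 over the epithelial libraries, with no overlap. A few carriers held most of it. Slc25a5, Slc25a3, Slc25a39, Slc25a10, Slc25a1 and Slc25a11 made up 90.7% ± 0.922 (SD, n = 8) of the family's FPKM in epithelial cells and 74.8% ± 1.87 (SD, n = 6) in macrophages. Ucp2 belongs to the family but lacks the Slc25a name, so it is outside these sums and the order below. Its mean was 342 FPKM in cre and 308 in wt macrophages, above the mean of any member there. In epithelial cells it was 179 FPKM in cre and 144 in wt.

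Among the 47 members the most abundant in both populations was Slc25a5, an ADP/ATP carrier that exports ATP from the matrix. It stood at 587 ± 74.2 FPKM (SD, n = 8) in epithelial cells and 230 ± 18.03 (SD, n = 6) in macrophages. In epithelial cells it was followed by the glutathione carrier Slc25a39 (388 ± 92.8 FPKM), the phosphate carrier Slc25a3 (353 ± 19.0), the dicarboxylate carrier Slc25a10 (166 ± 53.8), the citrate carrier Slc25a1 (138 ± 28.1) and the oxoglutarate carrier Slc25a11 (77.4 ± 14.8). Of these neighbours in order, Slc25a3 and Slc25a10 did not overlap between libraries, nor did Slc25a1 and Slc25a11, whereas the other adjacent pairs did. The order of Slc25a39 and Slc25a3 depended on genotype. Their means were 309 and 342 FPKM in wt epithelial cells, and 467 and 364 in cre. In macrophages the order after Slc25a5 was Slc25a3 (189 ± 9.99 FPKM), Slc25a39 (106 ± 15.3), Slc25a11 (67.8 ± 7.63), a further ADP/ATP carrier, Slc25a4 (67.4 ± 8.21), and Slc25a1 (47.2 ± 5.60). The first 3 macrophage levels were separate from each other over the 6 libraries, and the ranges of Slc25a11, Slc25a4 and Slc25a1 touched. Slc25a11 and Slc25a4 also changed order with genotype, at means of 67.0 and 72.9 FPKM in wt macrophages, and 68.7 and 61.8 in cre. At the other end, 13 of 47 members had a mean under 1 FPKM in both populations, and Slc25a54 had no count in any library.

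**Figure D1:**
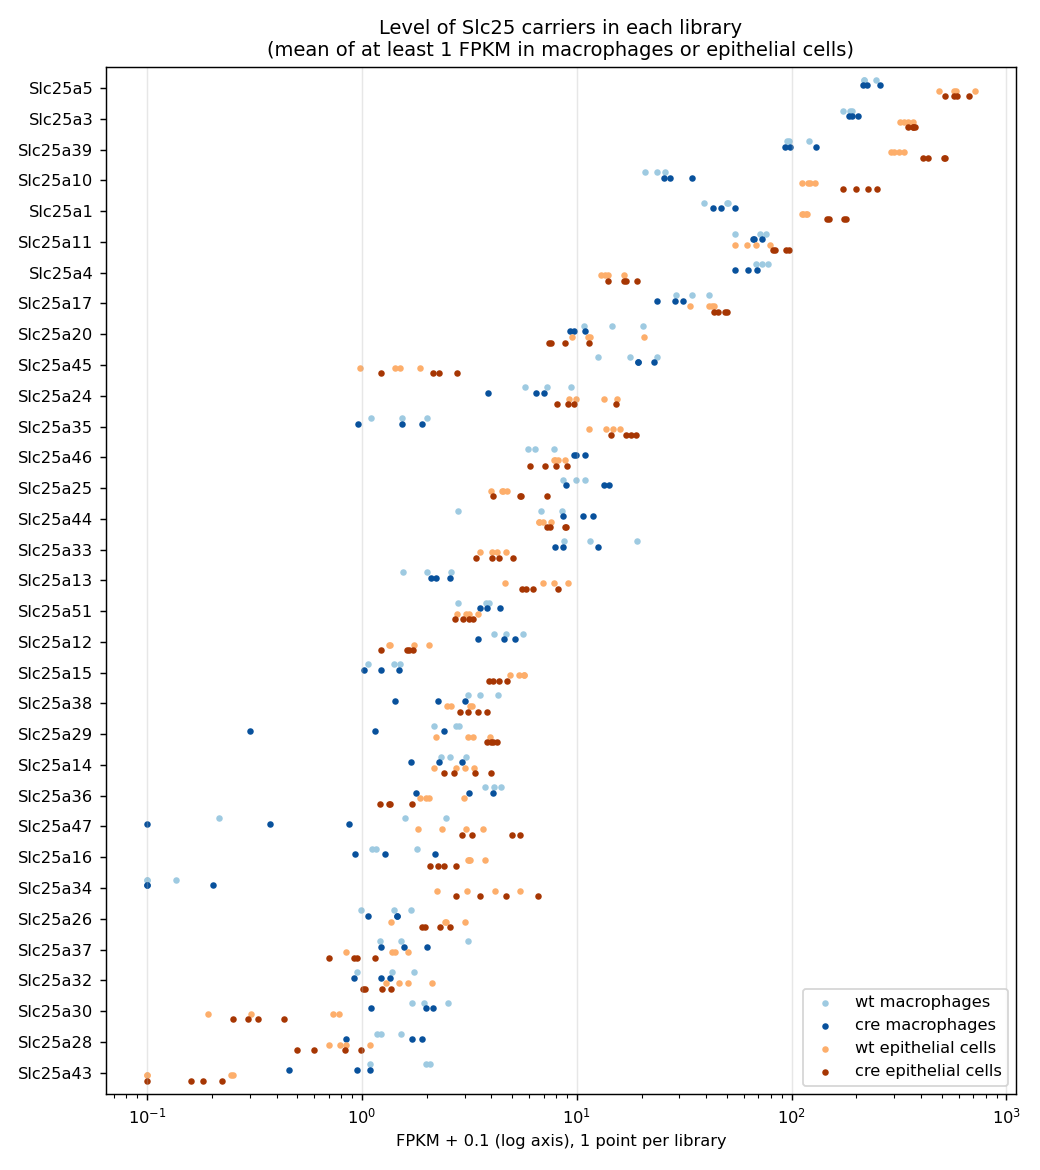
FPKM of 33 members with a mean of at least 1 FPKM in either population, 1 point per library (log axis, with 0.1 added to each value so that 0 can be drawn). Slc25a5 has the highest mean in both populations, followed over both genotypes by Slc25a3 in macrophages and Slc25a39 in epithelial cells. In wt epithelial cells alone the mean of Slc25a3 is above that of Slc25a39. The macrophage points of Slc25a4 lie to the right of its epithelial points.

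The populations were compared on the counts of all 14 libraries with edgeR's quasi-likelihood test, calling genes with a Benjamini-Hochberg adjusted p under 0.05 over all genes and at least a 2-fold difference. Values are log2 differences, macrophages minus epithelial cells, ± SE. Of 47 members 41 had enough counts for the test. Among them 9 were higher in macrophages, where 29.7% of all 16375 genes tested were, and 15 were higher in epithelial cells, where 22.5% of all genes were. The median over the 41 members was -0.38, against 0.07 over all genes tested. The 6 members not tested were Slc25a2, Slc25a18, Slc25a21, Slc25a31, Slc25a41 and Slc25a54, none above 6 counts in a library. The fibroblast, smooth muscle and B cell transcripts of the macrophage libraries differ between the populations as well, and their part in these differences was not tested.

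**Figure D2:**
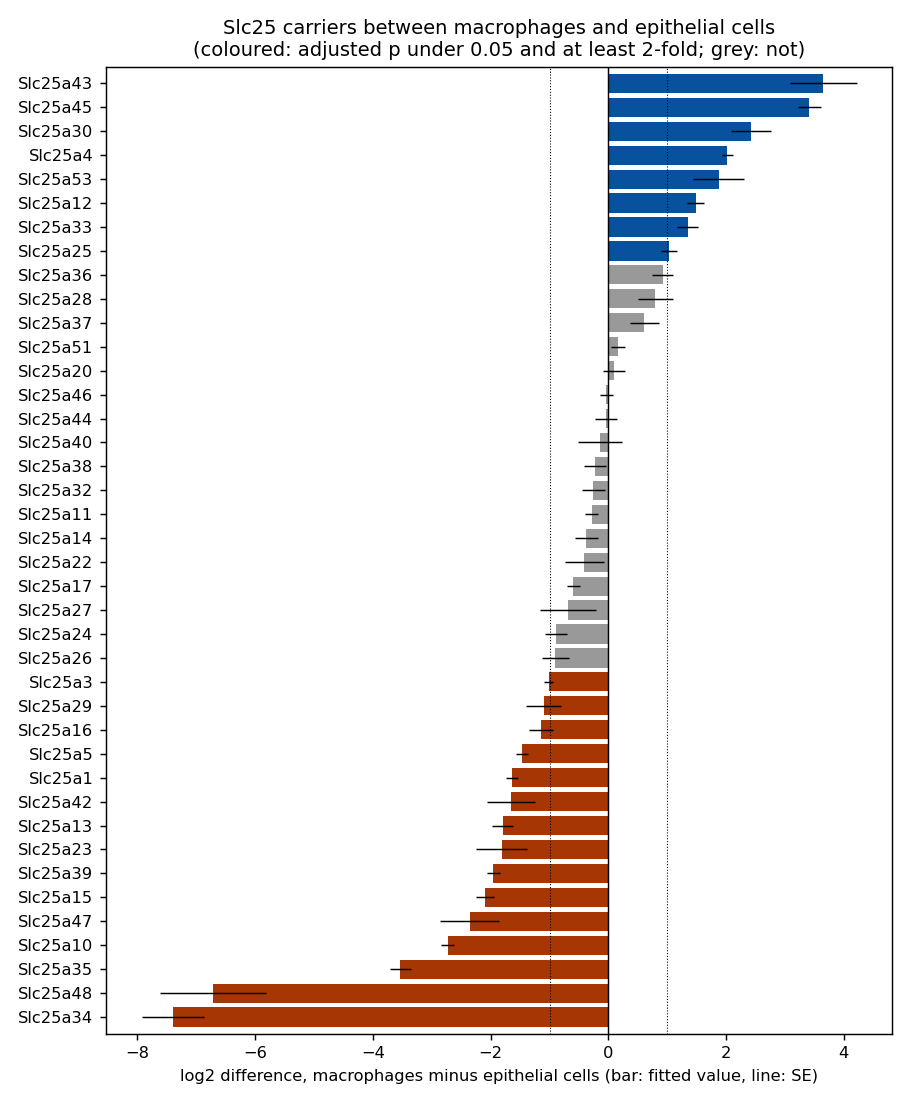
Log2 difference between macrophages and epithelial cells for 40 of the members tested (bar: fitted value, line: SE; dotted lines: 2-fold). Blue bars were called higher in macrophages (8), red bars higher in epithelial cells (15), and grey bars were not called; the bars of Slc25a34 and Slc25a48 rest on 3 and 0 macrophage counts.

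The carriers of adenine nucleotides and phosphate supply and regulate ATP synthesis. Of 10 members 8 were tested, with 2 called higher in macrophages and 4 in epithelial cells (median -0.95). Slc25a4 read 54.2 FPKM in its lowest macrophage library, 68.4 at the median and 77.7 in its highest, against 12.8, 15.1 and 18.9 in epithelial cells. Every macrophage library was above every epithelial library for this carrier, with a difference of 2.02 ± 0.10 (adjusted p = 8.19e-12). Slc25a5 went the other way, at 214, 221 and 257 FPKM in macrophages and 483, 578 and 711 in epithelial cells (-1.47 ± 0.10, adjusted p = 7.06e-10). Slc25a3, which imports the phosphate for ATP synthesis, ran from 174 to 205 FPKM in macrophages and from 320 to 375 in epithelial cells. Its difference of -1.02 ± 0.08 lay at the 2-fold limit and fell short of it without wt epithelial library 7 (-0.99) or wt macrophage library 4 (-0.99), and on the FPKM scale (-0.90).

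The calcium-regulated ATP-Mg/phosphate carriers adjust the matrix pool of adenine nucleotides. Slc25a25 was higher in macrophages (8.49–13.99 against 3.87–7.18 FPKM, 1.03 ± 0.13, adjusted p = 2.77e-06). Its difference fell under 2-fold without cre epithelial library 5 (0.92) or 10 (0.98), cre macrophage library 9 (0.97) or wt macrophage library 6 (0.99). Slc25a24 stood at 3.77–9.34 FPKM in macrophages and 7.98–15.3 in epithelial cells, and its difference of -0.89 ± 0.19 missed the 2-fold limit. The low carrier Slc25a23 was higher in epithelial cells (-1.81 ± 0.43, adjusted p = 0.00119), at 0–0.450 FPKM in macrophages and 0.395–1.16 in epithelial cells. Slc25a41 had 1 count in all libraries together. Slc25a42, which carries coenzyme A against adenine nucleotides, was also higher in epithelial cells (-1.65 ± 0.41, adjusted p = 0.00161), at a mean of 0.270 against 0.683 FPKM. Its libraries overlapped, at 0.0595–0.774 and 0.433–1.18 FPKM, and it was not among the members called over cre libraries alone. Its macrophage mean was 0.398 FPKM in cre and 0.141 in wt. Slc25a17, the peroxisomal member for coenzyme A, FAD and NAD, differed by -0.59 ± 0.11, under 2-fold.

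Carboxylate carriers exchange citric acid cycle intermediates with the cytosol. Of 4 members 3 were tested, 2 were called higher in epithelial cells and the median was -1.64. Slc25a10, which exchanges malate or succinate for phosphate, read 20.7, 25.6 and 34.2 FPKM (lowest, median, highest) in macrophages and 112, 151 and 248 in epithelial cells. It had the smallest p of the family in this comparison (-2.73 ± 0.12, adjusted p = 1.46e-12). Slc25a1, which exports citrate for lipid synthesis, ran from 39 to 54.4 FPKM in macrophages and from 111 to 179 in epithelial cells (-1.64 ± 0.10, adjusted p = 1.45e-10). Slc25a11, the oxoglutarate carrier of the malate-aspartate shuttle, overlapped between the populations, at 54.1–75.7 and 54.5–96.8 FPKM (-0.29 ± 0.10). The oxodicarboxylate carrier Slc25a21 had 0 counts in macrophages and 6 in epithelial cells.

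Among the 4 carriers of iron and glutathione, all tested, 1 was called (median 0.23). Slc25a39, which imports glutathione into mitochondria, read 93.5, 97.6 and 129 FPKM in macrophages and 290, 371 and 519 in epithelial cells (-1.96 ± 0.11, adjusted p = 8.43e-11). Its close relative Slc25a40 had means of 0.759 and 0.757 FPKM, and its difference of -0.15 ± 0.37 had no stable sign. The iron importers Slc25a37 (mitoferrin 1) and Slc25a28 (mitoferrin 2) had macrophage means of 1.67 and 1.30 FPKM and epithelial means of 1.02 and 0.692. Both had adjusted p-values under 0.05 (0.0334 and 0.0221) with differences under 2-fold, 0.61 ± 0.24 and 0.80 ± 0.29. Slc25a37 stood at 3.02 FPKM in wt macrophage library 6 and at 1.12–1.90 in the other macrophage libraries, and without that library its difference was 0.33.

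Of 10 carriers of amino acids and carnitine 8 were tested, with 1 higher in macrophages, 3 higher in epithelial cells and a median of -0.32. The aspartate/glutamate carriers drive the malate-aspartate shuttle. Slc25a12 (aralar) was higher in macrophages, at 3.36, 4.53 and 5.52 FPKM against 1.13, 1.53 and 1.95 in epithelial cells (1.48 ± 0.15, adjusted p = 1.21e-07). Slc25a13 (citrin) was higher in epithelial cells, at 1.45, 2.06 and 2.497 FPKM in macrophages against 4.55, 6.52 and 8.97 (-1.80 ± 0.18, adjusted p = 1.27e-07). The ornithine carrier Slc25a15, which serves the urea cycle and arginine metabolism, was higher in epithelial cells, at 0.922–1.41 against 3.78–5.59 FPKM (-2.10 ± 0.15, adjusted p = 1.08e-09). Slc25a29, a carrier of basic amino acids, was called higher in epithelial cells (-1.10 ± 0.30, adjusted p = 0.00364), but cre macrophage library 10 was low at 0.201 FPKM. The other 5 macrophage libraries held 1.04–2.73 FPKM and the epithelial ones 2.10–4.13. Without that library the difference was -0.86, and over wt libraries alone it was -0.42, with an adjusted p of 0.237. The carnitine/acylcarnitine carrier Slc25a20, needed for fatty acid oxidation, overlapped between the populations at 9.21–20.3 and 7.31–20.4 FPKM (0.09 ± 0.19). The glutamate carrier Slc25a22 stayed under 1.43 FPKM in each library and was not called (-0.41 ± 0.33), and its relative Slc25a18 reached no more than 4 counts. The glycine carrier Slc25a38 (-0.22 ± 0.19) and the branched-chain amino acid carrier Slc25a44 (-0.04 ± 0.18) were not called either.

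All 7 carriers of other nucleotides and cofactors were tested, 2 were called higher in macrophages and 1 in epithelial cells (median 0.17). The pyrimidine nucleotide carrier Slc25a33 read 7.80, 10.01 and 18.9 FPKM in macrophages and 3.31, 4.04 and 4.95 in epithelial cells (1.35 ± 0.18, adjusted p = 3.71e-06). Its relative Slc25a36 differed in the same direction by 0.92 ± 0.18, under 2-fold, at 1.68–4.32 and 1.12–2.89 FPKM. Slc25a16, a carrier linked to coenzyme A supply, was higher in epithelial cells (-1.14 ± 0.20, adjusted p = 7.86e-05), at 0.831–2.08 and 1.96–3.62 FPKM. It was not among the members called over cre libraries alone. The NAD carrier Slc25a51 (0.17 ± 0.12), the folate and FAD carrier Slc25a32 (-0.25 ± 0.19) and the S-adenosylmethionine carrier Slc25a26 (-0.90 ± 0.23) were not called.

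The widest differences were among the less characterised carriers. Of 9 listed, 8 were tested, with 3 called higher in macrophages and 4 in epithelial cells (median -1.20, which does not change when Slc25a48 is set at its bound). Slc25a34 had 3 counts in all 6 macrophage libraries together and 1062 in the 8 epithelial libraries. The ratio of scaled counts was 198, with a 95% counting interval of 67.5 to 961. Epithelial libraries ran from 2.13 to 6.51 FPKM. Slc25a35, which is closely related to Slc25a34, read 0.860, 1.44 and 1.91 FPKM in macrophages and 11.3, 15.2 and 18.8 in epithelial cells (-3.54 ± 0.18, adjusted p = 1.39e-11). Of its exonic bases 31.3% lie opposite exons of Rangrf, and the libraries keep no strand, so reads of the pair cannot be told apart there. Smaller overlaps of this kind cover 14.9% of the exonic bases of Slc25a33, 8.92% of Slc25a11, 7.06% of Slc25a46 and 6.60% of Slc25a10. Slc25a48 had 0 counts in macrophages and 117 in epithelial cells, at least 21.8-fold higher (floor of 3 counts over the group, counting error only). Slc25a47 ran from 0 to 2.35 FPKM in macrophages and from 1.72 to 5.34 in epithelial cells (-2.36 ± 0.49, adjusted p = 4.00e-04). Over wt libraries alone its difference was -1.10 with an adjusted p of 0.166.

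Slc25a45 stood out in macrophages, at 12.4, 19.2 and 23.4 FPKM against 0.880, 1.59 and 2.67 in epithelial cells (3.41 ± 0.20, adjusted p = 7.46e-11). Slc25a43 ran from 0.357 to 1.97 FPKM in macrophages and from 0 to 0.151 in epithelial cells, where no library held more than 2 counts (3.65 ± 0.57, adjusted p = 2.13e-05). Slc25a53 was low in both, at means of 0.323 and 0.0784 FPKM (1.87 ± 0.43, adjusted p = 8.27e-04). Slc25a46, an outer membrane member known for its part in mitochondrial dynamics, had like levels in the populations, at 5.84–10.8 and 5.97–8.90 FPKM (-0.04 ± 0.11). Of the 3 relatives of the uncoupling proteins, Slc25a30 was higher in macrophages, at 0.996–2.41 against 0.0907–0.681 FPKM (2.42 ± 0.34, adjusted p = 6.67e-06). Slc25a14 (-0.38 ± 0.20) and Slc25a27 (-0.68 ± 0.48) were not called.

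Within pairs of close relatives with the same type of substrate, the balance differed between the populations for some pairs and not for others. The share of Slc25a4 in the summed FPKM of Slc25a4 and Slc25a5 was 22.7% ± 2.47 (SD, n = 6) in macrophages and 2.57% ± 0.472 (SD, n = 8) in epithelial cells, with ranges of 20.2–26.5% and 1.90–3.54%. The share of Slc25a12 in Slc25a12 plus Slc25a13 was 68.5% ± 4.04 (SD, n = 6) and 18.7% ± 4.38 (SD, n = 8), at 61.4–73.3% and 12.3–26.5%. For Slc25a25 in Slc25a25 plus Slc25a24 it was 62.6% ± 6.98 (SD, n = 6) and 31.1% ± 6.13 (SD, n = 8), at 51.1–69.97% and 22.3–40.4%. Thus the macrophage and epithelial ranges of these 3 shares lay apart. For Slc25a28 in Slc25a28 plus Slc25a37 the ranges overlapped (26.2–59.0% and 31.2–51.1%), as they did for Slc25a33 in Slc25a33 plus Slc25a36 (68.2–83.9% and 58.9–78.0%). Slc25a39 made up at least 98.5% of Slc25a39 plus Slc25a40 in each library. The third ADP/ATP carrier, Slc25a31, known from the testis, had 7 counts in 2 macrophage libraries and 0 in epithelial cells. Reads shared by near-identical relatives could be split or lost in counting, and the pseudogene row Slc25a5-ps held 38 to 231 counts per library against 1934 to 12261 for Slc25a5.

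**Figure D3:**
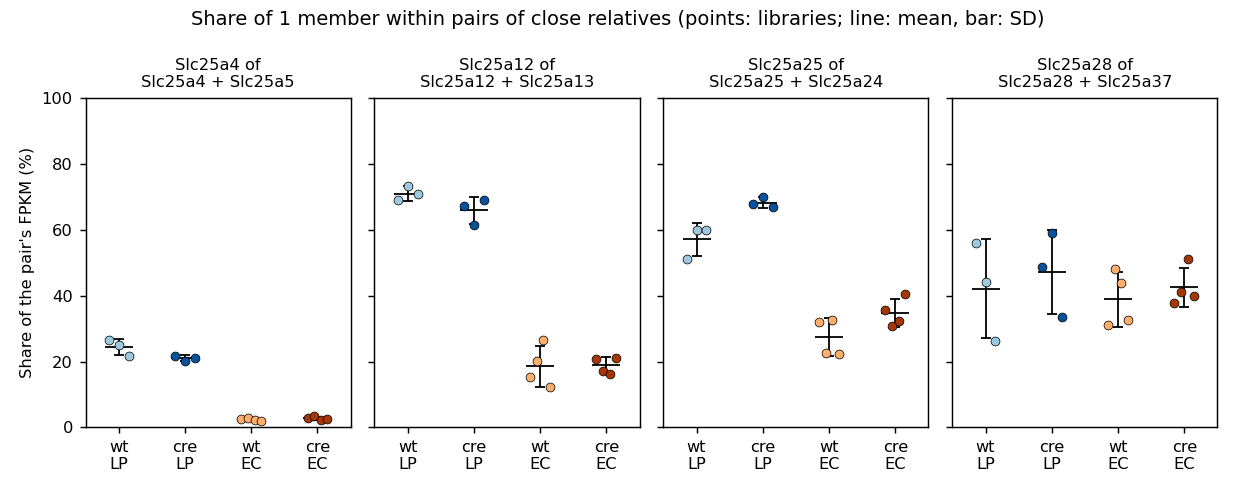
Share of 1 member in the summed FPKM of a pair of close relatives, in percent (points: libraries, line: mean, bar: SD; wt and cre, macrophages LP and epithelial cells EC). The Slc25a4, Slc25a12 and Slc25a25 shares are higher in every macrophage library than in any epithelial library, and the Slc25a28 shares overlap.

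Genes that work with the carriers were read from lists beside the family. Of 15 tested factors that import and insert carriers, 0 were higher in macrophages (29.7% of all genes were) and 7 in epithelial cells (22.5% of all genes). Timm8a1, a chaperone of the intermembrane space, differed by -2.67 ± 0.16, and Tomm5, of the outer membrane entry gate, by -1.72 ± 0.11. Of 21 other inner membrane transporters 5 had higher levels in macrophages and 4 in epithelial cells, and their 2 smallest p-values were for Sfxn3 (2.26 ± 0.11), a relative of serine transporters, and Sfxn1 (-1.94 ± 0.10), the mitochondrial serine transporter. Among the family's own members outside the Slc25a names, Mtch2, an outer membrane insertase, was higher in epithelial cells (-1.35 ± 0.11), and Ucp2 missed the 2-fold limit (0.90 ± 0.09). Of the 3 outer membrane channels Vdac1 was higher in epithelial cells (-1.25 ± 0.12), and Vdac3 just missed the limit (-0.98 ± 0.11). Adjusted p-values of these 8 genes ran from 6.42e-12 to 3.85e-07.

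Genotypes were then compared within epithelial cells. The Lyz2 locus, which carries the Cre allele, was read at 9.97–16.4 CPM in cre and 25.1–42.4 CPM in wt epithelial libraries. In macrophage libraries it was read at 6889–7287 CPM in cre and 7302–8753 in wt. The 12 macrophage markers summed to 21.5–61.1 CPM in cre and 38.3–79.0 in wt epithelial libraries. The part of macrophage transcripts in the epithelial Lyz2 values was not tested. Of 47 members 39 were tested on the 8 epithelial libraries, and 5 were called at an adjusted p under 0.05, where 9.17% of all 13553 genes were. Higher in cre were 4 members, against 5.64% of all genes, and 1 was lower, against 3.53%. Without adjustment 12 of 39 members (30.8%) had a p under 0.05, close to the 27.3% of all genes. The median change over members was -0.04, and over all genes -0.05. The carriers that rose were Slc25a10, Slc25a39, Slc25a1 and Slc25a11, and the one that fell was Slc25a36. The carboxylate list was the only one with every tested member called, 3 of 3, and its remaining gene, Slc25a21, was too low to test. The lists were chosen with earlier results of these data known, so this count describes the list and is not independent support for it.

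The 5 genes are shown with their RefSeq promoters (GRCm38.p6), since they are the members whose level moved with genotype. Each window is the 250 bases before the RefSeq start on the gene's strand, cut to its longest stretch outside exons of protein-coding genes. Capitals mark letters that match a searched motif on either strand. The searched motifs were the GC box GGGCGG, the CCAAT box CCAAT, the NRF1 core GCGCATGC, the ETS site CCGGAAG, the E-box CACGTG, the SREBP core CACCCCAC and the TATA box TATAAA.
Slc25a10, chr11:120491587-120491836, + strand: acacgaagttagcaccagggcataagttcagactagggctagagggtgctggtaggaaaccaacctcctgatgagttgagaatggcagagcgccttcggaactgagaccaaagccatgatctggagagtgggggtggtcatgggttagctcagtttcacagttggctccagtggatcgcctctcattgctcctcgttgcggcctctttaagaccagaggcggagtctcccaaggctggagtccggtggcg
Slc25a39, chr11:102407545-102407767, - strand: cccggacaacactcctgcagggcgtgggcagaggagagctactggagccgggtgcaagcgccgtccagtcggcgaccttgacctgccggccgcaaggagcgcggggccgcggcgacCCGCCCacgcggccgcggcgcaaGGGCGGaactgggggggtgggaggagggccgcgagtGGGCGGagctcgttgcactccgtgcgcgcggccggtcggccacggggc
Slc25a1, chr16:17928220-17928469, - strand: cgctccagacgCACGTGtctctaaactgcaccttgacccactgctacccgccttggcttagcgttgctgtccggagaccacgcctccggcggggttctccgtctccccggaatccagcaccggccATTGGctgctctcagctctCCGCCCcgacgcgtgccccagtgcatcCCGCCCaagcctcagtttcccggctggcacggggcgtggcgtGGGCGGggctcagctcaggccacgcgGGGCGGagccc
Slc25a11, chr11:70647059-70647234, - strand: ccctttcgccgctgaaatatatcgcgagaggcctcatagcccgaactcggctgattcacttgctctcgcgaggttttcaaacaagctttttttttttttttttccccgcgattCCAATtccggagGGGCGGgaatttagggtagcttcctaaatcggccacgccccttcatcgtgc
Slc25a36, chr9:97111158-97111291, - strand: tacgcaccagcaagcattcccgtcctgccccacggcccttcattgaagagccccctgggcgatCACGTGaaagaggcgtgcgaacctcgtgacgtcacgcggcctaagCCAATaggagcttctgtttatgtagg

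The 4 promoters of genes that rose did not share a motif. In the full windows Slc25a39 held 5 GC boxes, Slc25a1 held 4, Slc25a11 and Slc25a36 held 1 each, and Slc25a10 held no match to any motif searched. A CCAAT box was found in Slc25a1, Slc25a11 and Slc25a36, an E-box in Slc25a1 and Slc25a36, and an SREBP core in Slc25a36. The GC box was found in 32.7% of all 32851 RefSeq promoter windows and in 32 of the 46 windows of members, the E-box in 6.02% and 8 of 46, the CCAAT box in 33.9% and 21 of 46, and the SREBP core in 2.58% and 1 of 46. The windows of members also had more G and C, with a median of 57.4% against 52.4%. RefSeq promoters were matched for 36 of the 47 members. A match is only a run of letters.

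Slc25a10 read 173, 200, 227 and 248 FPKM in the cre libraries and 112, 119, 121 and 129 in wt. Every cre library was above every wt library, and the change was 0.78 ± 0.11 on the log2 scale (adjusted p = 0.00648). Slc25a39 read 408, 430, 510 and 519 FPKM in cre and 290, 298, 314 and 334 in wt (0.55 ± 0.10, adjusted p = 0.00817). For Slc25a1 the cre libraries were at 146, 149, 176 and 179 FPKM and the wt libraries within 111–117 (0.46 ± 0.09, adjusted p = 0.0109). The groups did not overlap for these 3 carriers. Slc25a11 was closer, at 81.4, 83.6, 93.7 and 96.8 FPKM in cre and 54.5, 62.1, 68.1 and 78.8 in wt, without overlap (0.39 ± 0.11, adjusted p = 0.0461). Slc25a36, a pyrimidine nucleotide carrier, was at 1.12, 1.238, 1.248 and 1.61 FPKM in cre and 1.75, 1.88, 1.94 and 2.89 in wt. It fell by 0.75 ± 0.20 on the log2 scale (adjusted p = 0.0302). The summed FPKM of the family was 2056 ± 134 (SD, n = 4) in cre and 1708 ± 112 (SD, n = 4) in wt, at 1909–2222 and 1591–1860.

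**Figure D4:**
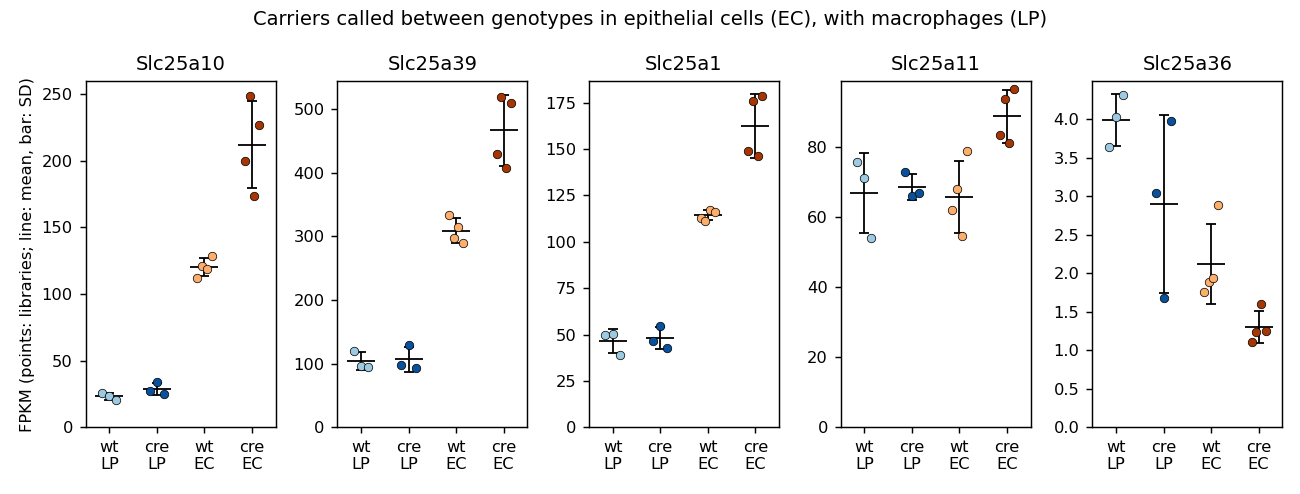
FPKM of the 5 members called between genotypes in epithelial cells (EC), with the same genes in macrophages (LP); points are libraries, lines means and bars SD. In EC each cre point of Slc25a10, Slc25a39, Slc25a1 and Slc25a11 lies above each wt point, and each cre point of Slc25a36 below; in LP the groups overlap.

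RNA composition moved with genotype in the same libraries. The ribosomal RNA gene CT010467.1 took 7.37%, 8.53%, 10.6% and 26.7% of counts in cre epithelial libraries 5, 9, 10 and 8, against 18.5–31.8% in wt, and mitochondrially encoded genes took 10.4–10.7% against 11.6–18.1%. The epithelial markers summed to 19260–21420 CPM in cre and 14110–18380 in wt. They did not move alike, since the means of Epcam (436 in cre, 533 in wt), Cdh1, Cldn7, Krt20 and Muc2 were lower in cre. The means of the other markers were higher, among them Lgals4 (5260 and 3775 CPM) and Krt8 (3901 and 2522 CPM). Library cre 8, whose ribosomal share was inside the wt range, was the lowest cre library for the 4 carriers that rose and stood above the highest wt library in each, at 173 against 129 FPKM for Slc25a10. With the ribosomal share as a covariate 0 members and 3 of all genes passed, and the part of RNA composition in the rise was not tested. Transcripts of the 4 genes that rose held 54.2–60.6% G and C, and that of Slc25a36 held 40.7%. The share of higher genes among all calls was 61.5%, against 81.0% once the trend on GC content and length was removed and 82.3% on the FPKM scale.

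Whether a member was called depended on the libraries and the fit, while the 5 changes kept their direction in each setting given here. With the ribosomal share as a covariate the changes were 0.60 for Slc25a10 (adjusted p = 0.0544), 0.44 for Slc25a39, 0.38 for Slc25a1, 0.24 for Slc25a11 and -0.59 for Slc25a36. In males only 0 were called, at 0.66, 0.54, 0.41, 0.36 and -0.91 in the same order. In a fit of all 14 libraries Slc25a10 alone was called, with Slc25a39 at 0.56, Slc25a1 at 0.48, Slc25a11 at 0.40 and Slc25a36 at -0.73. With the GC and length trend removed Slc25a10 and Slc25a39 were called, and Slc25a1 was at 0.28, Slc25a11 at 0.21 and Slc25a36 at -0.38. Slc25a10 and Slc25a39 were called whichever single library was left out, Slc25a1 was not without cre library 9 (0.42), Slc25a11 was not without cre library 5, 9 or 10 or wt library 2, 4 or 6 (0.31 to 0.41), and Slc25a36 was not without cre library 5, 9 or 10 or wt library 7 (-0.73 to -0.57). Without cre libraries 5 and 9 together, a pair chosen after seeing the data, 0 members were called.

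Groups of 4 against 4 libraries separate without overlap by chance at a rate of 0.0286, and the share of all genes that did so was not counted. Since 27.3% of all genes had an unadjusted edgeR p under 0.05 here, that share may lie well above this rate. Lack of overlap is therefore not read as a result about the family. Of the members not called in epithelial cells, those without overlap in FPKM were each lower in cre. They were the ornithine carrier Slc25a15 (3.78–4.64 against 4.81–5.59 FPKM, -0.40 ± 0.14, adjusted p = 0.0746), Slc25a16 (1.96–2.64 against 3.00–3.62, -0.53 ± 0.17, adjusted p = 0.0599) and Slc25a27 (0.161–0.336 against 0.341–0.524, -0.71 ± 0.34, adjusted p = 0.196). Slc25a27 rested on 7 to 19 counts per epithelial library. DESeq2 called Slc25a15 and Slc25a16 in addition to the 5 above. The 2 most abundant carriers with no change called were Slc25a5, at 516–668 FPKM in cre and 483–711 in wt (-0.04 ± 0.12), and Slc25a3, at 346–375 and 320–366 (0.05 ± 0.08). By role, 0 of 8 tested adenine nucleotide and phosphate carriers were called, 1 of 7 for other nucleotides and cofactors (lower), 0 of 8 for amino acids and carnitine, 1 of 4 for iron and glutathione (higher), 0 of 3 uncoupling protein relatives and 0 of 6 less characterised members.

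Among the genes that work with the carriers, 3 of 15 tested import factors rose in cre epithelial cells and 0 fell, where 5.64% of all genes rose and 3.53% fell. Timm13, a chaperone for inner membrane proteins, changed by 0.59 ± 0.11 (adjusted p = 0.0082) and Timm22, the insertase that places carriers in the inner membrane, by 0.49 ± 0.14 (adjusted p = 0.0441). The third was Timm8a1, the partner of Timm13 (0.51 ± 0.15, adjusted p = 0.0469). Of 20 other transporters 2 rose, among them Smdt1, a subunit of the calcium uniporter complex (0.39 ± 0.12, adjusted p = 0.0465). Mtch2 rose by 0.38 ± 0.10 (adjusted p = 0.0321), and 0 of 3 outer membrane channels were called. These calls are those of the main fit and depended on the setting. Among all genes 0 were called higher in males only, and 2 with the ribosomal share as a covariate. Without cre libraries 5 and 9 together, 0 genes were called.

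In macrophages, the population with high Lyz2 reads, 0 of 35 tested members were called between genotypes by edgeR, where 0.944% of all 14087 genes were. DESeq2 called 0 members as well. At an unadjusted p under 0.05 stood 2 of 35 (5.71%) by edgeR, against 12.8% of all genes. By DESeq2, which tested more genes, it was 4 of 43 members and 1915 of 27038 genes. The 3 smallest p-values belonged to carriers of different roles. Slc25a46 was at 9.62, 9.81 and 10.8 FPKM in cre and 5.84, 6.29 and 7.70 in wt, groups that did not overlap (0.61 ± 0.18, adjusted p = 0.177). The carnitine/acylcarnitine carrier Slc25a20 was at 9.21, 9.56 and 10.8 FPKM in cre and 10.7, 14.5 and 20.3 in wt, groups that overlapped (-0.62 ± 0.25, adjusted p = 0.348; -0.35 without wt library 2). The branched-chain amino acid carrier Slc25a44 was at 8.55, 10.5 and 11.8 FPKM in cre and 2.71, 6.72 and 8.45 in wt, without overlap (0.80 ± 0.37, adjusted p = 0.413; 0.45 without wt library 2). Slc25a38 (1.33–2.90 against 3.01–4.19) and Slc25a43 (0.357–0.990 against 0.994–1.97) did not overlap in FPKM either, both lower in cre, the second too low for this test. Groups of 3 against 3 libraries separate without overlap by chance at a rate of 0.1, and the share of all genes that did so was not counted. For macrophages too, lack of overlap is not read as a result about the family.

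The carriers that rose in epithelial cells had overlapping groups in macrophages. Slc25a10 was at 25.4, 27.1 and 34.2 FPKM in cre and 20.7, 23.5 and 25.8 in wt (0.32 ± 0.18, adjusted p = 0.521), Slc25a39 changed by 0.04 ± 0.18, Slc25a1 by 0.05 ± 0.17 and Slc25a11 by 0.04 ± 0.16. The summed FPKM of the family was 892 ± 11.1 (SD, n = 3) in cre and 886 ± 38.8 (SD, n = 3) in wt. Of 20 tested transporters outside the family Tmem65, an inner membrane protein linked to mitochondrial sodium and calcium exchange, was called. It stood at 6.80 ± 0.203 FPKM (SD, n = 3) in cre and 1.72 ± 0.935 (SD, n = 3) in wt (1.997 ± 0.37, adjusted p = 0.0449). The second smallest p of that list was for Mpc1, a subunit of the pyruvate carrier (0.46 ± 0.17, adjusted p = 0.296). The fibroblast and smooth muscle list stood at 1194–3146 CPM in cre and 3625–6172 in wt, and the macrophage list at 13180–17460 and 8698–11420. In the first list the means of Col1a1, Col1a2, Col3a1, Dcn, Dpt, Lum and Postn were lower in cre (Dcn at 364 and 917 CPM). Acta2 (265 and 260 CPM), Des (56.7 and 57.2), Myh11 (9.92 and 10.1) and Pdgfra (23.4 and 20.4) were near equal, and Tagln was low (0.427 and 0.705). In the macrophage list the means of Mrc1 and Itgam were lower in cre and the others higher. The part of both lists in these values was not tested, and the sexes were unevenly split between the groups.

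Whether the genotype effect differed between the populations was tested as an interaction over all 14 libraries, macrophage change minus epithelial change. Of 41 members 0 were called, where 0.702% of all 16375 genes were, and DESeq2 called 0 too. At an unadjusted p under 0.05 stood 10 of 41 by edgeR (24.4%, against 15.3% of all genes), and by DESeq2 10 of 46 members and 2850 of 31256 genes. The edgeR count was not stable. It was 1 of 41 without wt macrophage library 2 (2174 of 16907 genes) and 13 of 41 without wt macrophage library 6 (2899 of 16863 genes). With sex as a covariate it was 5 of 41, and with the replicate number as a block, over 12 libraries, 3 of 41. The 3 smallest p-values were for Slc25a46 (0.74 ± 0.22, adjusted p = 0.130), Slc25a47 (-2.56 ± 0.98, adjusted p = 0.231) and Slc25a39 (-0.54 ± 0.21, adjusted p = 0.243). Slc25a47 was at 0, 0.274 and 0.766 FPKM in cre macrophages and 0.115, 1.49 and 2.35 in wt, with 2.82–5.34 in cre and 1.72–3.54 in wt epithelial cells, so the groups overlapped in both. For the carboxylate carriers the differences were -0.49 ± 0.21 for Slc25a10 (adjusted p = 0.282), -0.44 ± 0.19 for Slc25a1 (adjusted p = 0.283) and -0.38 ± 0.21 for Slc25a11 (adjusted p = 0.403). The rise of these carriers in epithelial cells was therefore not shown to differ from their change in macrophages. Outside the family Tmem65 was called in this comparison (2.25 ± 0.44, adjusted p = 0.0257).

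**Figure D5:**
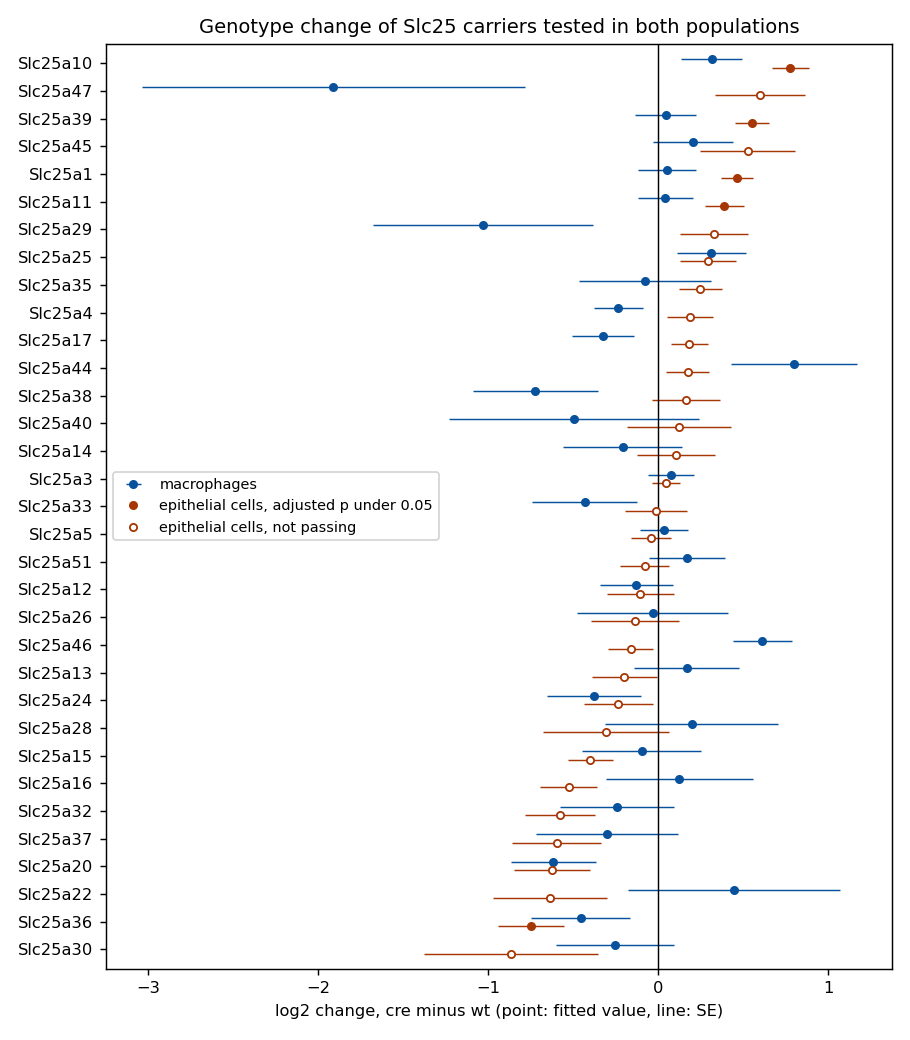
Log2 change between genotypes (cre minus wt, point: fitted value, line: SE) of 33 members tested in both populations, each fitted alone. Filled red points mark the 5 members called in epithelial cells; no macrophage point was called.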

How the data were processed

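RNA of 14 libraries of sorted colon cells was read by Smart-seq2 with single reads that keep no strand, per the labels' protocols. The submitters' processing notes name GRCm38 as the build and list DESeq2 1.24.0, Picard 2.19.2 and STAR 2.5.2b, without their roles. For the counting step, tool and annotation are not given in the sources used. The authors deposited raw counts per gene and FPKM, and each FPKM equals the count divided by 1 value per gene and 1 factor per library (largest relative deviation 4.93e-14 over 9764 genes).

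The main test was edgeR 4.0.16 on the counts, run in R 4.3.3 (TMM scaling, filterByExpr with a minimum count of 10, robust quasi-likelihood fit), with Benjamini-Hochberg adjustment over all genes and a threshold of 0.05. The comparison of cell types also asked for an absolute log2 difference of 1. Genotypes were compared within each population, and the cell types and the interaction over all 14 libraries. The SE was taken as the absolute log2 change over the root of the F statistic. CPM was computed on TMM library sizes. The procedure was also run on simulated counts with planted changes, drawn independently for each library. These counts held no difference in ribosomal share, GC trend, sex or shared animals, so the run cannot speak to those. With 3 libraries against 3 an exact permutation test of a single value cannot go below p = 0.1, and with 4 against 4 not below 0.0286, so none is given.

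Named members were the 6 with the highest mean FPKM per cell type, those called between genotypes (the 3 smallest p where fewer than 3 were called), the 8 largest called differences in each direction between cell types with a mean of 5 CPM, sets of close relatives, and the 2 smallest p of each related list. A member and a gene of a related list that the rule names are not reported here, though the counts include them. All other members are given more briefly, chosen after their values were seen. The members and lists were chosen with earlier results of these data known. Alternatives were other scalings, filters and tools (DESeq2 1.42.0, limma 3.58.1 on log2 FPKM with a pseudocount of 1 or 0.1), covariates, subsets and leaving out each library.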

Additional observations from a re-analysis of the deposited data

Results flagged for a closer look

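In 56 sets of 4 epithelial libraries (1 member in 1 genotype), the gap between the highest or lowest library and the next was compared with the whole range. Dixon's 95% critical value for 4 libraries is 0.829, and chance passes it in about 1 of 20 sets. It was passed in 2 sets. The carnitine/acylcarnitine carrier Slc25a20 was at 47.95 CPM in wt epithelial library 6, against 22.64 to 26.68 CPM in the other wt epithelial libraries (ratio 0.841). The pyrimidine nucleotide carrier Slc25a36 was at 20.14 CPM in wt epithelial library 7, against 12.46 to 13.6 CPM in the others (ratio 0.852). Slc25a36 is the member called lower in cre epithelial cells, and without that library its call was lost.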

How the results depend on the processing

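Between cell types, the 24 members called became 15 with limma on log2(FPKM + 1), where 31 members passed the filter, and all genes called went from 8543 to 4994, or 5536 without a filter. Over cre libraries alone Slc25a16, Slc25a42, Slc25a43 and Slc25a53 were not among the members called. Over wt libraries alone Slc25a29, Slc25a47 and Slc25a53 were not. Directions turned for Slc25a22 with cre libraries only (0.10) and for Slc25a40 without cre macrophage replicate 8 (0.02), without wt macrophage replicate 2 (0.10) and with wt libraries only (0.18), none of them called. Leaving out 1 library moved Slc25a40 between -0.413 and 0.099. Of the values of named members, 637 kept their direction and side of the threshold, 18 fell below it, 5 rose above it and 4 turned. The values of Slc25a5 entered the 637 in duplicate.

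Between genotypes in epithelial cells, the 5 members called became 0 with limma on unfiltered FPKM, 1 in a fit of all 14 libraries, 0 with the ribosomal share as a covariate, 2 with the GC and length trend removed, 0 in males only and 0 without cre replicates 5 and 9 together, a pair chosen after seeing that each lowered the count. Leaving out 1 library gave 2 to 6. All genes called, 1243, became 1957 with DESeq2, and 0, 19, 3, 615, 5 and 0 in those settings, and 178 to 1947 leaving out 1 library. In macrophages the 133 genes called became 497 with DESeq2, 299 without a filter, 47 with unfiltered FPKM, 2 with sex as a covariate, 374 in a fit of all 14 libraries, 18 with the ribosomal share as a covariate, 32 in males only and 29 to 87 leaving out 1 library. The cause of these changes was not tested. For the interaction, 115 genes became 509 with DESeq2, 195 without a filter, 297 with limma on log2(FPKM + 1), 183 unfiltered, and 54 to 229 leaving out 1 library. The share of higher genes among interaction calls went from 67.0% to 44.8% on the FPKM scale. In these 2 comparisons no member was called in the settings run. With CPM per length in place of FPKM the family's sum was 839.2 in cre and 840.0 in wt macrophages.

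The replicate block (12 libraries, numbers shared by both cell types) called 23 members between cell types, losing Slc25a25 (0.94), 8341 of all genes, 7 genes for the interaction and 0 members there. Same-numbered libraries deviated together weakly, with correlations of -0.06 to 0.09, none above 0.1. The 3 wt libraries correlated best with their own number and the 3 cre libraries did not. Correlations this weak, taken across cell types, cannot decide whether a shared number marks the same mouse. Same-numbered libraries had the same sex. The main fit had no block, took all libraries as independent and called 115 genes for the interaction. No paired analysis was possible between genotypes because they share no number.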

Other observations

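Some members lie next to each other in the genome (GRCm38, coordinates as in the annotation matched to the deposited gene table). Slc25a29 and Slc25a47 stand head to head on chromosome 12, with 162 bases between them, and both were called higher in epithelial cells (-1.10 ± 0.30 and -2.36 ± 0.49 on the log2 scale), each losing its call over wt libraries alone. Slc25a43 and Slc25a5 lie 18448 bases apart on the same strand of chromosome X and had opposite differences, 3.65 ± 0.57 and -1.47 ± 0.10. Slc25a54, which had no count, lies 6461 bases from Slc25a24 on chromosome 3, and Slc25a41, with 1 count, lies 2056 bases from Slc25a23 on chromosome 17.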
